A study of Homo sapiens with 2 samples.

Results

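The cells described here are the H1 human embryonic stem cells richest in mitotic transcripts, chosen separately in a ZNF263 homozygous knockout (KO) library and in a wild-type (WT) library. A barcode counted as a cell with at least 1000 UMIs (unique molecular identifiers, 1 per captured transcript), at least 500 genes and at most 20% of UMIs from mitochondrially encoded genes. Within each library the top 10% of cells were taken by the share of their UMIs over 15 genes: CCNB1, CDC20, PLK1, CENPF, CENPE, TOP2A, HMMR, AURKA, TPX2, UBE2C, CCNB2, ASPM, DLGAP5, KIF20A and CDKN3. This gave 229 of 2286 KO cells and 294 of 2935 WT cells, 523 of 5221 in all, named mitotic-high cells below. H1, or WA01, is an established embryonic stem cell line, and in its KO form ZNF263, a zinc finger transcription factor gene, was deleted with Cas9; whether the KO library is 1 clone is not given in the sources used here. Both libraries came from routine culture, dissociation with TrypLE and a viability stain, with RNA captured on barcoded beads in microwells. Each genotype has a single library, so nothing could be tested between them and no p-value is given; all 95% intervals cover counting error only, not the variation between cultures, clones or libraries.

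Transcripts for entry into and exit from mitosis accumulate late in each cycle, and many of their proteins are destroyed as the cell divides. Cyclin B with CDK1 starts mitosis; PLK1 and the Aurora kinases, with kinesins such as CENPE and KIF20A, build and use the spindle; CDC20 and UBE2C act with the anaphase-promoting complex, the ubiquitin ligase that ends mitosis. Human pluripotent stem cells divide quickly with a short G1 phase, so a culture holds cells at every stage. Many G2 and M genes carry in their promoters a CHR element (cell cycle genes homology region), through which the DREAM and MuvB complexes act, and CCAAT boxes bound by NF-Y.

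The promoters below are of 4 of the 15 genes, outside those used for the choice, that were highest in mitotic-high cells of both libraries. They were picked after their sequences were seen, because the 150 bases before the annotated start hold a CHR (TTTGAA), so they are examples of the element and not a sample of the group. All are from the RefSeq promoter table, build GRCh38.p14, and are written 5′ to 3′ on the gene's strand; capitals mark TTTGAA and the CCAAT box read on either strand (CCAAT or ATTGG). CDCA8, at chr1:37692366-37692515 on the plus strand, encodes borealin of the chromosomal passenger complex, and its CHR overlaps an ATTGG. HJURP, at chr2:233854536-233854685 on the minus strand, encodes the chaperone that loads the centromeric histone CENPA. PRC1, at chr15:90994536-90994685 on the minus strand, encodes a protein that bundles microtubules of the central spindle. PRR11, at chr17:59155596-59155745 on the plus strand, encodes a proline-rich protein linked to cell cycle progression.
CDCA8: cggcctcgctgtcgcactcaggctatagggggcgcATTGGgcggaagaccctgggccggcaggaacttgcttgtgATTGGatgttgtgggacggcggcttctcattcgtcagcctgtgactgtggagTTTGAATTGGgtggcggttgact
HJURP: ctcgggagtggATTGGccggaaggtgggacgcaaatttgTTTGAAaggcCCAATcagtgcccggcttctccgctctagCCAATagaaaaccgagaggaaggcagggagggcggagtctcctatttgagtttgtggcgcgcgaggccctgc
PRC1: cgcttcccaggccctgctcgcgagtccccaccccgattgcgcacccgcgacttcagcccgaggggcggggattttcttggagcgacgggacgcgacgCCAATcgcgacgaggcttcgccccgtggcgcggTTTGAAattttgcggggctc
PRR11: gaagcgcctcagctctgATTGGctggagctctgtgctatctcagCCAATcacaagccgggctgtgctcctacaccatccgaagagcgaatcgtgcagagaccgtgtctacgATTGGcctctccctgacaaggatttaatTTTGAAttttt

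Over promoters of 250 bases before to 50 after the start, searched on both strands, TTTGAA or its variant TTCGAA stood in 75.0% of the 12 genes of the choice with an entry and in 75.8% of 66 other G2 and M genes. It stood in 14.0% of 43 S phase genes, in 15.2% of 2281 other genes measured here and in 19.5% of all 27305 promoters. CCAAT was frequent in S phase genes as well. It stood in 91.7% of the genes of the choice, 75.8% of the other G2 and M genes and 72.1% of S phase genes. In the 2281 other genes measured here it stood in 45.9%, and in all promoters in 39.7%. Both elements together stood in 75.0%, 60.6%, 9.30%, 6.31% and 7.85% of the same groups, in that order. Of the 15 genes highest in mitotic-high cells, 9 held TTTGAA, among them the 4 printed, and 11 a CCAAT box. A match is a description of the letters in this window, not of a bound site.

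The 15 genes of the choice made up 4846 CPM (counts per 1000000 UMIs) in KO mitotic-high cells, against 1678 CPM in the other KO cells. In the WT library they made up 6472 CPM in mitotic-high cells, against 2172 CPM in the others. These values chose the cells and are given as a description only. A KO mitotic-high cell held a median of 6 UMIs of the 15 genes, from 4 to 27, and a WT one held 9, from 6 to 26; the medians in other cells were 2 and 3. TOP2A, the topoisomerase that untangles chromosomes, and CENPF, a kinetochore protein, gave the most of them. TOP2A stood at 1074 CPM in KO mitotic-high cells and at 308 CPM in other KO cells, and at 1571 and 481 CPM in the same WT groups. CENPF stood at 647 and 235 CPM in KO, and at 1077 and 331 CPM in WT.

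The cells are a range of a score. The share of mitotic transcripts had no gap at the cut, and with so few mitotic UMIs per cell this does not show whether a separate population lies within it. At the cut in the KO library, the lowest cell inside held 5 of 1308 UMIs (3823 CPM) and the highest outside 5 of 1310 (3817 CPM). In the WT library the lowest inside held 7 of 1383 UMIs (5062 CPM) and the highest outside 6 of 1186 (5059 CPM). With 1 mitotic UMI fewer, 119 KO members (52.0%) and 116 WT members (39.5%) would fall below the cut, and with 1 more 224 KO and 169 WT other cells would pass it. The 15 genes were at 1991 CPM in KO barcodes of 10 to 99 UMIs and at 1977 CPM in all kept KO cells; in WT the same values were 2580 and 2570 CPM. Shallow barcodes, whose UMIs may be free RNA, thus held these transcripts at the level of the average cell, and their part in the UMIs of single cells was not tested.

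**Figure D1:**
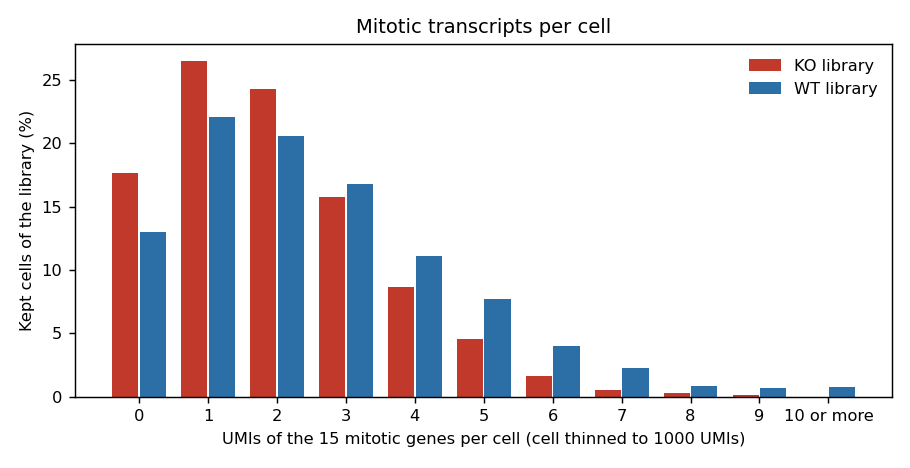
Percent of kept cells (y axis) by UMIs of the 15 mitotic genes after each cell was thinned to 1000 UMIs (x axis), KO and WT bars side by side. Both libraries have a single hump, at 1 UMI, with a tail that is longer in WT: 0 UMIs were found in 17.6% of KO and 13.0% of WT cells.

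The KO tail was the shorter one. At the WT cut, 72 KO cells qualified, 3.15% of the library, where the choice itself sets the WT share at 10.0%. After thinning to 1000 UMIs, 2.58% of KO cells held at least 6 mitotic UMIs, against 8.62% of WT cells. These shares rest on the genes of the choice, in 1 library per genotype, and are a description only. Since the top 10% was taken within each library, KO and WT mitotic-high cells were cut at different levels. Several comparisons of lists between them are therefore also given at the WT cut, and those of single genes are not.

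Mitotic-high cells were about as deep as the others. Their median was 1241 UMIs in KO, against 1294 in other KO cells, and 1322.5 UMIs in WT, against 1330. Cells over 2 times the library's median UMIs were 5.68% of KO mitotic-high cells and 8.70% of other KO cells, and 3.06% and 8.14% of the same WT groups. Doublets were not removed: Scrublet called 8 KO and 6 WT cells, a number too small to rely on, and 0 of them were mitotic-high. The libraries shared 20 barcodes among kept cells, 0 of them mitotic-high. ZNF263 itself gave 2 UMIs in KO mitotic-high cells and 14 in WT ones, and 25 and 69 UMIs in the other KO and WT cells. Where the deletion lies in the gene is not given in the sources used here, so reads outside it could still be counted.

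The 6 pluripotency markers gave 718 UMIs in KO and 760 in WT mitotic-high cells. Of these, LIN28A gave 289 in KO and 328 in WT, DPPA4 221 and 218, and SOX2 106 and 140. TDGF1 gave 76 and 57, POU5F1 21 and 12, and NANOG 5 and 5. Markers of amnion and trophoblast, endoderm and primitive streak were scarce. Of the neural markers CRABP1 was not scarce, and in KO the others were. The 6 amnion and trophoblast markers gave 0 UMIs in KO and 1 in WT, and the 5 endoderm markers gave 1 and 2, with SOX17 and GATA4 at 0 in both. The 5 primitive streak markers gave 13 and 16, with MESP1 at 0 in both. Of 5 fibroblast markers, DCN and LUM were at 0 in both, COL1A1 gave 4 and 5 UMIs, COL1A2 10 and 21, and THY1, which stem cells also express, 110 and 104. The 6 neural markers gave 113 UMIs in KO, 99 of them CRABP1, and 355 in WT, 280 of them CRABP1. NR2F1 gave 8 in KO and 19 in WT, POU3F2 3 and 28, PAX6 2 and 7, STMN2 1 and 15, and SOX1 0 and 6. Both neural sums were below those of the 6 pluripotency markers.

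G2 and M genes that took no part in the choice were also higher in mitotic-high cells, by less than the genes of the choice. The list held 76 genes in the files, of which 42 were measured, meaning a mean of at least 50 CPM. Summed over the list, the level was 7662 CPM in KO mitotic-high cells, against 5943 CPM in other KO cells, and 10073 CPM in WT mitotic-high cells, against 6867 CPM in other WT cells. The log2 ratio was 0.37 in KO (0.31 to 0.43), a 1.29-fold difference, and 0.55 in WT (0.51 to 0.60), a 1.47-fold difference. Of the 42 genes, 38 were higher in mitotic-high cells in KO and 41 in WT, 38 of them in both; among all 2921 genes measured outside the choice, 54.0%, 50.4% and 32.0% were. The 1.29-fold and 1.47-fold differences depended on the limits for a cell. With barcodes of at least 500 UMIs, where the gene minimum was lowered too, the log2 ratios were 0.17 in KO and 0.31 in WT. At 1.5-fold or more, 10 were higher in KO, where 3.25% of all genes were, and 21 in WT, where 2.57% were. BIRC5, MAD2L1, MYBL2 and TUBB4B were not higher in KO, nor MYBL2 in WT; these were named after their values were seen.

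**Figure D2:**
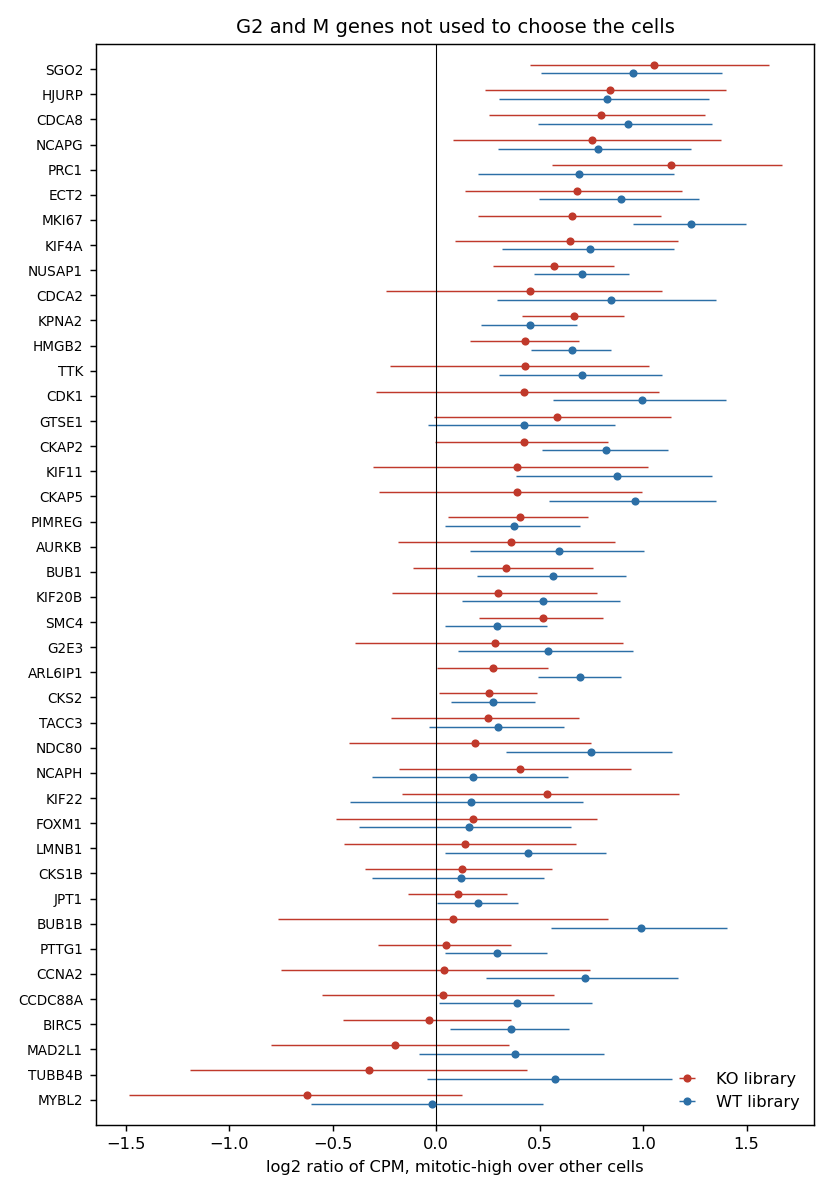
log2 ratio of CPM in mitotic-high cells over other cells (x axis) for each of the 42 measured G2 and M genes outside the choice, KO above WT in each row, with 95% intervals of counting error. Most points lie right of 0 in both libraries, and the intervals of single genes are wide.

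The level followed the score over most of its range, with dips among the lower bins. With cells cut into 10 bins in order of the share of the 15 genes, the other G2 and M genes stood in KO at 5232 CPM in the lowest bin, 6184 CPM in the fifth and 7653 CPM in the highest. In WT the same bins stood at 5326, 6624 and 10082 CPM. The lowest bins of KO and WT were thus close and the highest far apart, but bins were ranked within each library. In the highest bin the 15 genes were at 4850 CPM in KO and 6476 CPM in WT, so these bins were not matched. In the ninth WT bin, with the 15 genes at 4471 CPM, the other G2 and M genes stood at 8776 CPM. S phase genes did not follow the score. They were at 6341 and 6521 CPM in the lowest and highest KO bins, and at 6914 and 6842 CPM in the WT ones. The G2 and M level in shallow barcodes was 6047 CPM in KO and 7207 CPM in WT, near the 6105 and 7164 CPM of all kept cells.

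**Figure D3:**
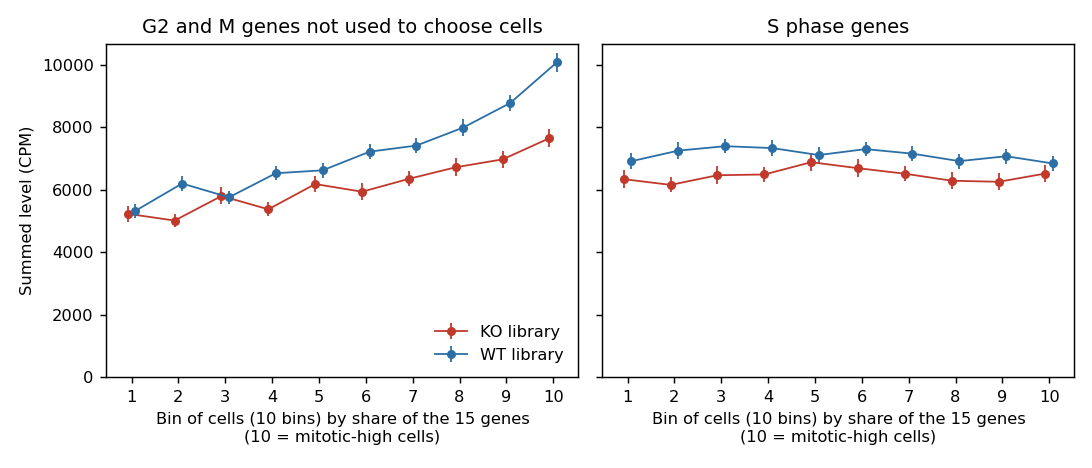
Summed CPM (y axis) of G2 and M genes outside the choice (left) and of S phase genes (right) over 10 bins of cells by share of the 15 mitotic genes (x axis), KO and WT as separate lines with exact Poisson intervals. Bins were ranked within each library, so the same bin can hold different shares in KO and WT. The G2 and M level climbs to 7653 CPM in KO and 10082 CPM in WT. The S phase level stays between 6157 and 6884 CPM in KO and between 6842 and 7395 CPM in WT.

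When the 15 genes were split, the genes left out were higher too, in cells that only partly overlapped the mitotic-high cells. Of cells chosen by the first 8 genes, 143 of 229 in KO and 208 of 294 in WT were mitotic-high. Of those chosen by the last 7, 101 of 229 in KO and 137 of 295 in WT were. With cells chosen by the first 8 genes, the other 7 were higher by a log2 ratio of 0.34 in KO (0.16 to 0.52) and 0.76 in WT (0.63 to 0.88). With cells chosen by the last 7, the first 8 were higher by 0.33 in KO (0.19 to 0.47) and 0.66 in WT (0.56 to 0.75). The genes that made each choice differed by 1.79 to 2.03, against the 0.33 to 0.76 of the genes left out. Members with UMIs of at least 5 of the 15 genes were 56.8% in KO and 77.9% in WT.

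Spindle genes were among the highest of the G2 and M groups. Of 16 measured kinesins and spindle genes, 15 were higher in both libraries, where 32.0% of all genes were, and the summed log2 ratio was 0.39 in KO (0.31 to 0.47) and 0.52 in WT (0.46 to 0.59). PRC1 stood at 104 CPM in KO mitotic-high cells and at 47.4 CPM in other KO cells, and at 104 and 64.7 CPM in the same WT groups; its KO ratio turned to -0.045 for barcodes of at least 2000 UMIs. KPNA2, an importin that binds spindle factors, was at 475 and 299 CPM in KO and at 408 and 298 CPM in WT. NUSAP1, which binds spindle microtubules, was at 335 and 226 CPM in KO and at 432 and 264 CPM in WT. For KPNA2 and NUSAP1, whose UMI numbers were among the highest of the group, each interval of the ratio lay above 0.

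The chromosomal passenger complex, which carries Aurora B to the centromere and then to the midzone, differed by 0.34 in KO (0.08 to 0.58) and 0.48 in WT (0.28 to 0.67). CDCA8 was 113 CPM in KO mitotic-high cells, against 65.0 CPM in other KO cells, and 135 CPM, against 70.9 CPM, in WT. AURKB, its kinase, was 107 against 83.3 CPM in KO and 130 against 86.0 CPM in WT. BIRC5, the other measured member, was not higher in KO, at 169 against 173 CPM, and was 265 against 206 CPM in WT. CDK1 and its G2-M regulators together differed by 0.24 in KO (0.12 to 0.35) and 0.28 in WT (0.18 to 0.37). CDK1 itself was 65.3 against 48.6 CPM in KO and 137 against 68.7 CPM in WT. Cytokinesis genes were not higher as a sum in KO, at -0.04 (-0.13 to 0.06), and differed by 0.10 in WT (0.02 to 0.17). Of 6 measured, 3 were higher in both, where 32.0% of all genes were.

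Checkpoint genes were near level in KO and higher in WT. Genes of the spindle checkpoint and the anaphase-promoting complex had a log2 ratio of 0.08 in KO (-0.04 to 0.20) and 0.33 in WT (0.23 to 0.42), and the difference of these was -0.25 (-0.40 to -0.10). That difference was -0.12 for barcodes of at least 500 UMIs, -0.13 against cells with no UMI of the 15 genes and -0.34 with the WT cut. SGO2, which protects centromeric cohesion, was 95.0 CPM in KO mitotic-high cells, against 45.8 CPM in other KO cells, and 125 CPM, against 64.7 CPM, in WT. BUB1, a checkpoint kinase, was 154 against 122 CPM in KO and 174 against 118 CPM in WT. TTK, the kinase that starts the checkpoint, was 77.2 against 57.3 CPM in KO and 149 against 91.0 CPM in WT.

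Chromosome genes were higher in both libraries, and kinetochore genes outside the choice were not detectably so as a sum. Condensin, cohesin and chromosome proteins differed by 0.19 in KO (0.14 to 0.25) and 0.20 in WT (0.16 to 0.25), with 14 of 21 higher in both, where 32.0% of all genes were. MKI67, a protein of the mitotic chromosome surface, was 151 against 95.9 CPM in KO and 323 against 137 CPM in WT. HMGB2, a chromatin protein, was 407 against 301 CPM in KO and 592 against 376 CPM in WT. Kinetochore and centromere genes differed by 0.06 in KO (-0.05 to 0.18) and 0.09 in WT (-0.01 to 0.19). Of 13 measured, 3 were higher in both, below the 32.0% of all genes. The list left out CENPE and CENPF, which were used for the choice. HJURP was 92.0 against 51.4 CPM in KO and 92.8 against 52.4 CPM in WT, whereas PMF1, of the MIS12 complex, was 92.0 against 136 CPM and 118 against 140 CPM.

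**Figure D4:**
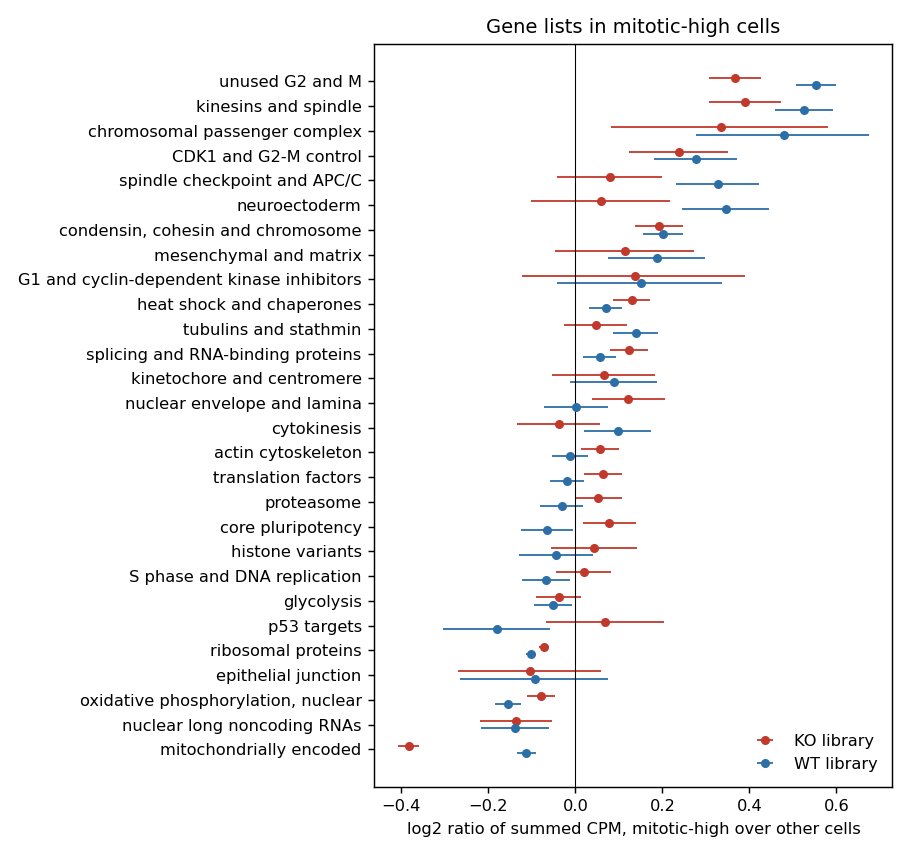
log2 ratio of summed CPM in mitotic-high cells over other cells (x axis) for each gene list with at least 3 measured genes, KO above WT in each row, with 95% intervals of counting error. G2 and M lists lie at the top, from 0.24 to 0.55 for the first 4, and mitochondrially encoded genes at the bottom, at -0.38 in KO and -0.11 in WT.

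Among all 2921 genes, 13 were at least 1.5-fold higher in mitotic-high cells of both libraries, which is 0.445%. This count depended on the settings, with 0 for barcodes of at least 500 UMIs, 5 for cells chosen after thinning and 118 against cells with no UMI of the 15 genes. Of the 13, 8 were G2 and M genes of the list: CDCA8, ECT2, HJURP, KIF4A, MKI67, NCAPG, PRC1 and SGO2. The other 5 were PRR11, PRTG, TAOK1, SENP6 and MLLT10. PRTG, an immunoglobulin superfamily receptor of early neural tissue, was 101 CPM in KO mitotic-high cells, against 56.0 CPM in other KO cells, and 545 CPM, against 301 CPM, in WT. Its log2 ratio was 0.85 in KO (0.28 to 1.38) and 0.86 in WT (0.65 to 1.06), although its level differed more than 5-fold between the libraries. PRR11 was 160 against 80.2 CPM in KO and 186 against 108 CPM in WT. TAOK1, a kinase of the MAPK and Hippo pathways, was 101 against 51.1 CPM in KO and 116 against 66.4 CPM in WT. SENP6, a SUMO protease, had ratios of 0.64 and 0.71, and MLLT10, a chromatin protein, 0.71 and 0.62, with a WT ratio of -0.92 for barcodes of at least 2000 UMIs. TCF12, a helix-loop-helix factor, had 0.77 and 0.58.

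Fewer genes were lower at these settings, although for barcodes of at least 2000 UMIs 67 were lower and 59 higher. Here 4 of the 2921 genes, 0.137%, were at least 1.5-fold lower in both libraries: CCDC124, SNHG19, STMP1 and TMEM205. CCDC124, a ribosome-binding protein, was 35.6 against 59.1 CPM in KO and 48.7 against 82.2 CPM in WT. SNHG19, a small nucleolar RNA host gene, was 59.3 against 95.0 CPM in KO and 44.1 against 77.7 CPM in WT. These rest on 12 to 26 UMIs in mitotic-high cells. APOE, a lipid carrier, rested on more, with 226 against 334 CPM in KO and 142 against 234 CPM in WT. The other 7 genes lowest by the smaller ratio, FLVCR1, PTPMT1, PRPS1, ERI3, SNRPA, PARP2 and COIL, had log2 ratios from -0.96 to -0.48. In each library alone, 2.88% of genes in KO and 2.12% in WT were at least 1.5-fold lower. The median half-width of a gene's interval was 0.51 in KO and 0.44 in WT on the log2 scale, close to the 1.5-fold limit, so most single-gene differences of that size could not be told from counting error.

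S phase genes did not differ detectably from the other cells in KO and were slightly lower in WT. Their log2 ratio was 0.02 in KO (-0.04 to 0.08) and -0.07 in WT (-0.12 to -0.01), and 8 of 36 were higher in both, where 32.0% of all genes were. MCM5, of the replicative helicase, was 65.3 against 80.8 CPM in KO and 69.6 against 84.6 CPM in WT. MCM7 was 193 against 233 CPM in KO and 200 against 260 CPM in WT. Single replication-dependent histone genes were mostly under the measured level in these polyadenylated libraries.

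Ribosomal and respiratory transcripts were slightly lower in both libraries. Of 73 measured ribosomal protein genes, 1 was higher in both, where 32.0% of all genes were, and their sum differed by -0.07 in KO (-0.08 to -0.06) and -0.10 in WT (-0.11 to -0.09). Of 37 nuclear genes of oxidative phosphorylation, 2 were higher in both, with sums of -0.08 in KO (-0.11 to -0.05) and -0.15 in WT (-0.18 to -0.12). NDUFB9, of complex I, was 445 against 623 CPM in KO and 425 against 531 CPM in WT. COX5A, of complex IV, was 552 against 660 CPM in KO and 411 against 526 CPM in WT. Mitochondrially encoded transcripts were 4.27% of UMIs in KO mitotic-high cells, against 5.57% in other KO cells, and 4.26%, against 4.61%, in WT. Taken per cell the medians lay closer, at 4.68% against 5.16% in KO and 4.39% against 4.36% in WT.

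Chaperone and splicing genes were slightly higher. Heat shock and chaperone genes differed by 0.13 in KO (0.09 to 0.17) and 0.07 in WT (0.03 to 0.11), with 12 of 18 higher in both, where 32.0% of all genes were. HSPH1, a co-chaperone of HSP70, was 202 against 127 CPM in KO and 225 against 176 CPM in WT. Splicing and RNA-binding proteins differed by 0.12 in KO (0.08 to 0.17) and 0.06 in WT (0.02 to 0.09). SF3B1, of the U2 particle, was 448 against 337 CPM in KO and 413 against 371 CPM in WT. SALL4, a pluripotency factor, was 178 against 128 CPM in KO and 188 against 133 CPM in WT, although the pluripotency list as a whole was at 0.08 in KO (0.02 to 0.14) and -0.06 in WT (-0.12 to -0.01).

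Transcript length moved with these ratios and was not tested as their source. Over genes outside the G2 and M lists, the median log2 ratio of mitotic-high over other cells was -0.06 in KO and -0.09 in WT for transcripts under 2000 bases. For transcripts of 6000 bases or more it was 0.19 in KO and 0.17 in WT. The other G2 and M genes lay above the medians of their length class in both libraries: those under 2000 bases had medians of 0.31 in KO and 0.47 in WT. Lengths were matched for 2671 of the 2921 genes.

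Neuroectoderm genes were higher as a sum in WT mitotic-high cells and not detectably so in KO ones. Their summed level was 1050 CPM in KO mitotic-high cells, against 1008 CPM in other KO cells, a log2 ratio of 0.06 (-0.10 to 0.22). In WT it was 2153 CPM, against 1695 CPM, a ratio of 0.35 (0.25 to 0.44). The sum in WT rested on few genes: the median ratio of the 7 measured members was -0.0014 in KO and 0.06 in WT. It did not follow the score either, since the lowest of the 10 WT bins by mitotic share stood at 1965 CPM (1837 to 2100), the fifth at 1549 CPM and the highest at 2156 CPM. NEFM, a neurofilament, was 53.4 against 75.8 CPM in KO and 272 against 166 CPM in WT. NES, the intermediate filament nestin, was 190 against 190.4 CPM in KO and 357 against 247 CPM in WT, and was named after its value was seen. OTX2, a factor of the anterior neural plate, was 53.4 against 78.9 CPM in KO and 81.2 against 89.6 CPM in WT, and TUBB3, a neuronal tubulin, 169.1 against 169.3 CPM and 174 against 178 CPM. The other 3 of the 7, CRABP1, FABP7 and MAP2, were higher in both libraries, where 32.0% of all genes were. CRABP1 was 294 against 267 CPM in KO and 650 against 498 CPM in WT. Its WT log2 ratio of 0.38 turned to -0.016 for barcodes of at least 2000 UMIs. FABP7 had log2 ratios of 0.22 in KO and 0.05 in WT, and MAP2 0.53 and 0.06. Cells with at least 5 CRABP1 UMIs, where CRABP1 is a retinoic acid binding protein of neural progenitors, were 0 of 229 KO mitotic-high cells, which allows a share of up to 1.60%, and 0.194% of other KO cells. In WT they were 12 of 294 (4.08%, 2.13 to 7.02%), against 1.86% of other cells (1.38 to 2.45%).

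A few cells carried the primitive streak signal. The list differed by a log2 ratio of 1.68 in KO, on 13 UMIs in mitotic-high cells, of which 10 were in 1 cell of 3371 UMIs; without that cell it was -0.43. In WT, 17 UMIs lay in 10 cells and the ratio was 0.02.

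Between genotypes, G2 and M genes were lower in KO in both groups of cells. The difference was larger in mitotic-high cells as chosen, which were cut at different mitotic shares in KO and WT. Outside the choice they were 7662 CPM in KO and 10073 CPM in WT mitotic-high cells, a log2 ratio of -0.39 (-0.47 to -0.32), and -0.21 in the other cells. The ratio of these ratios was -0.19 on the log2 scale (-0.26 to -0.11), -0.09 with the WT cut in both libraries and -0.35 against cells with no UMI of the 15 genes. The -0.09 rested on 72 KO cells and has no interval, so whether it exceeds counting error was not tested. Of the 42 genes, 39 were lower in KO in mitotic-high cells and 35 in the others, with median log2 ratios of -0.42 and -0.24. Over all 2921 genes these medians were -0.04 and -0.08, so all genes leaned toward lower in KO too, and their share was not counted. In mitotic-high cells 14 of the 42 were at least 1.5-fold lower, where 11.0% of all genes were. At least 1.5-fold higher were 0, where 6.33% of all genes were. With the WT cut in both libraries the summed ratio in mitotic-high cells was -0.28. MKI67 was 151 CPM in KO and 323 CPM in WT mitotic-high cells, and CDK1 65.3 and 137 CPM. HJURP and PRC1 stood level, at 92.0 and 92.8 CPM and at 104 and 104 CPM.

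The genes of the choice divided in the same comparison, given as a description because the cuts differed. ASPM, a spindle pole protein, was 107 CPM in KO and 248 CPM in WT mitotic-high cells, CENPE 184 and 357 CPM, and CENPF 647 and 1077 CPM. CCNB1, cyclin B1, was 493 and 508 CPM, AURKA 291 and 283 CPM, UBE2C 475 and 434 CPM, and CDKN3, a phosphatase of cyclin-dependent kinases, 223 and 204 CPM. Transcript length moved with this division only in part, and its role was not tested. TOP2A (5758 bases), TPX2 (3605) and HMMR (3102) were 1.46-fold, 1.54-fold and 1.48-fold lower in KO mitotic-high cells. The shorter CDC20 (1777) and DLGAP5 (2973) were lower too, 1.36-fold and 1.41-fold, and CCNB2 (2503) 1.06-fold. PLK1 (2227) and KIF20A (3201), both under 50 CPM over kept cells, were 1.32-fold and 1.41-fold higher. In mitotic-high cells, the median KO over WT ratio of genes outside the G2 and M lists was 0.05 for transcripts under 2000 bases and -0.18 for those of 6000 bases or more. For the other G2 and M genes it was -0.36 over 8 short transcripts and -0.91 over 4 long ones, so short ones were lower in KO too. In other cells the same medians were 0.01 and -0.18, and for G2 and M genes -0.05 and -0.44.

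Neuroectoderm genes showed the largest list difference among those with at least 5 measured genes. They were 1050 CPM in KO and 2153 CPM in WT mitotic-high cells, a log2 ratio of -1.04 (-1.22 to -0.86), and -0.75 in other cells, with a ratio of ratios of -0.29 (-0.47 to -0.10). Without the cells rich in CRABP1 the ratio in mitotic-high cells was -0.80. The ratio of ratios was 0.00 where the other cells were those with no UMI of the 15 genes, and -0.11 for cells chosen after thinning. Tubulins and stathmin were at -0.59 (-0.67 to -0.50) in mitotic-high and -0.50 in other cells. TUBA1B, a main alpha-tubulin, was 1629 CPM in KO and 2323 CPM in WT mitotic-high cells. Epithelial junction genes were higher in KO, at 0.44 (0.22 to 0.67) in mitotic-high and 0.46 in other cells, and ribosomal protein genes at 0.18 and 0.15. Core pluripotency genes were at 0.27 (0.19 to 0.35) and 0.13 as a sum. The median ratios of their 17 measured members were lower, at 0.11 in mitotic-high and -0.05 in other cells. Of the 17, 4 were at least 1.5-fold higher in KO mitotic-high cells, where 6.33% of all genes were. At least 1.5-fold lower was 1, where 11.0% of all genes were. POU5F1 was 62.3 CPM in KO and 27.8 CPM in WT mitotic-high cells, on 21 and 12 UMIs. Mitochondrially encoded genes were level in mitotic-high cells, at 0.00 (-0.03 to 0.03), and at 0.27 in other cells. The ratio of these ratios, -0.27, varied with the choice of cells. It was -0.06 for the top 20%, -0.07 for barcodes of at least 500 UMIs, -0.13 after thinning and 0.0090 with the last 7 genes. With the first 8 genes or without the deepest cells it was -0.10. It was -0.32 with the WT cut, -0.33 for the top 5% and -0.37 for barcodes of at least 2000 UMIs.

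**Figure D5:**
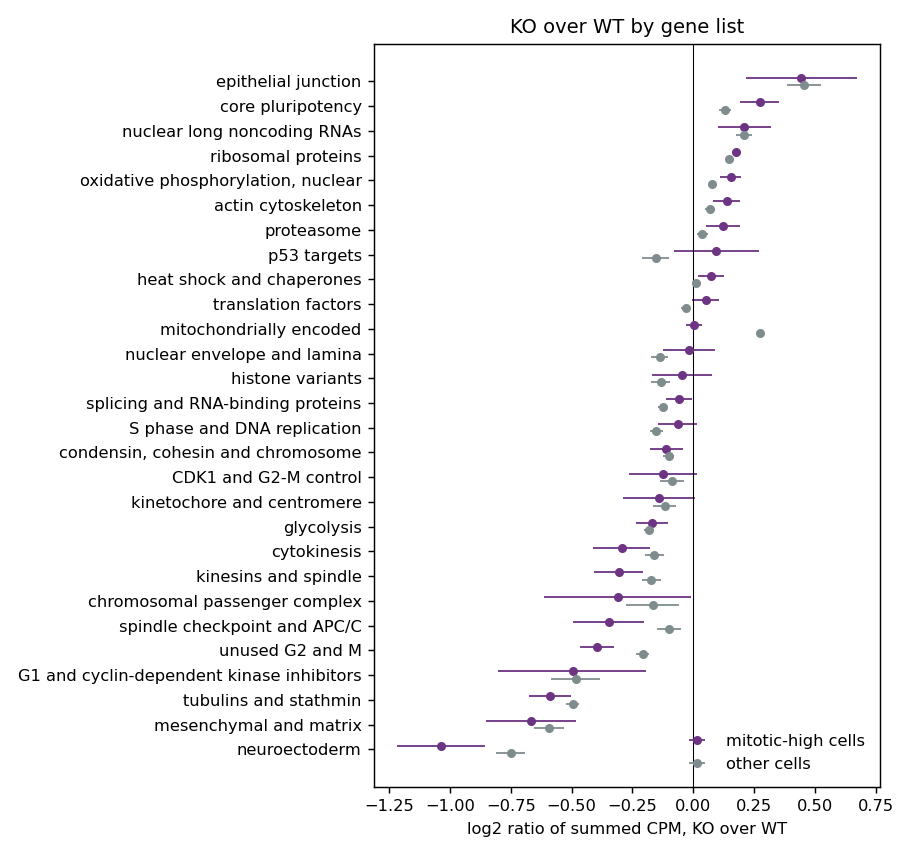
log2 ratio of summed CPM, KO over WT (x axis), for each gene list with at least 3 measured genes, in mitotic-high cells (upper point of a row) and in other cells (lower point), with 95% intervals of counting error. Neuroectoderm genes lie farthest left, at -1.04 and -0.75, and epithelial junction genes farthest right, at 0.44 and 0.46.

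The single genes farthest apart between KO and WT mitotic-high cells were apart in the other cells too, as the rule for naming them required. FST, the activin inhibitor follistatin, was 53.4 CPM in KO and 418 CPM in WT mitotic-high cells, and 53.5 and 320 CPM in the others. PRTG was 101 and 545 CPM in mitotic-high cells, and 56.0 and 301 CPM in the others. PTN, the growth factor pleiotrophin, was 300 and 933 CPM in mitotic-high cells, and CCND1, cyclin D1, 59.3 and 183 CPM. IGDCC3, FZD3, TUBB2A, GLUL and ATP2A2 were also low, with log2 ratios from -1.58 to -1.25. ATP2A2, a calcium pump, was 59.3 and 142 CPM in mitotic-high cells but 92.9 and 98.8 CPM in the others.

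On the high side, RCC2, a regulator of chromosome condensation that also acts at the centromere, was 323 CPM in KO and 81.2 CPM in WT mitotic-high cells, and 281 and 94.8 CPM in the others. ACTB, beta-actin, was 3599 and 1662 CPM in mitotic-high cells, and 3329 and 1662 CPM in the others. MKNK2, S100A11, LARP1, PMAIP1, KPNA6, EZR and MFGE8 had log2 ratios from 1.02 to 1.38, and NONOP1, a pseudogene whose reads may come from NONO, 1.81. Of all 2921 genes, 185 were at least 1.5-fold higher and 322 at least 1.5-fold lower in KO mitotic-high cells, with 1.34% and 3.32% of genes past the same limits in the other cells, whose UMIs are about 10 times as many. The median half-width of a gene's interval was 0.66 in mitotic-high cells and 0.21 in the others.

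For single genes, the KO over WT ratio in mitotic-high cells was set against that in the other cells with a median half-width of 0.69 for the interval. At a mean of at least 100 CPM over kept cells, the ratio of ratios was highest for UXT, a prefoldin-like protein, at 0.97 (0.29 to 1.67). MCM6, of the replicative helicase, was 148 CPM in KO and 109 CPM in WT mitotic-high cells, and 117 and 155 CPM in the others. ARF3, PMAIP1 and ADSL followed, at 0.84 to 0.85. It was lowest for NEFM, at -1.22 (-2.05 to -0.46), then for RPS28P4, a ribosomal protein pseudogene with uncertain reads, at -1.03 (-1.80 to -0.27). FIS1, a mitochondrial fission protein, was 77.2 and 151 CPM in mitotic-high cells, and 129 and 128 CPM in the others. ANAPC5, of the anaphase-promoting complex, was 80.1 and 139 CPM in mitotic-high cells, and 117 and 109 CPM in the others. ABI2, of an actin regulator complex, was 104 and 239 CPM in mitotic-high cells, and 147 and 183 CPM in the others. These are the extremes of many genes, and each interval is for a single gene.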

How the data were processed

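Single-cell RNA was measured in 1 KO and 1 WT library. The deposited values are raw UMI counts by gene and by barcode. Tools listed in the submitters' processing notes, in no stated order, are Subread, featureCounts 2.0.1, STAR 2.7.10a and UMI-tools 1.1.2, on build hg38; no annotation or barcode filter is named in the sources used here. The KO library held 54559376 UMIs over 841049 barcodes and the WT library 60578040 over 842407. Barcodes held UMIs below the limits for a cell, and 15 entries beyond the number the KO file header states were kept. Mitotic-high cells held 337000 UMIs in KO and 430941 in WT; other cells held 3230881 and 4219450. At these depths intervals cover counting error only.

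Levels are CPM of UMIs summed over a group's cells, with exact Poisson intervals, and log2 ratios of these have exact conditional binomial intervals. Ratios of ratios have exact conditional intervals where a count was small. Where all counts were large, as for most lists, their intervals are normal approximations on the log scale. Genes counted as measured at a mean of at least 50 CPM over kept cells of both libraries: 2921 outside the 15, of 27540 listed in both. A fold of 1.5 was used for counts of genes. Of 685 list entries, 679 matched a symbol. Named genes are the 15 of the choice, ZNF263, POU5F1, NANOG and SOX2; the 15 highest and 12 lowest by the smaller of the KO and WT ratios of mitotic-high over other cells; up to 4 members of a list by the same rank; the 10 highest and 10 lowest KO over WT ratios, with at least 100 CPM on average in mitotic-high cells and the same direction in other cells; and the 5 highest and 5 lowest ratios of ratios. Of the list members this rule gives, those described were chosen after their values, and how these held under the alternatives, had been seen. The cells, lists and rules were chosen with earlier results of these data known. Promoters are from RefSeq (GRCh38.p14) and the transcript lengths from GENCODE 29. Functions were tested on simulated data. Python 3.11.15, NumPy 2.4.6, SciPy 1.17.1, pandas 2.3.3 and Scanpy 1.11.5 were used.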

Additional observations from a re-analysis of the deposited data

Results flagged for a closer look

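Core pluripotency genes differed between mitotic-high and other cells in opposite directions, with a log2 ratio of 0.08 in KO, a 1.06-fold higher level, and of -0.06 in WT. The log2 ratio of KO to WT ratios was 0.14 (0.06 to 0.23), and each library's interval of counting error lay on its own side of 0. With 1 library per genotype the difference between the genotypes was not tested, and the opposite directions did not hold at every setting. The KO direction reversed when cells were chosen by the first 8 genes (-0.0085), and the WT direction reversed for barcodes of at least 500 UMIs (0.00097) and against cells with no UMI of the 15 genes (0.025). The 0.14 was 0.02 with the first 8 genes, 0.05 for barcodes of at least 500 UMIs and 0.24 for the top 5% of cells.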

How the results depend on the processing

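No paired analysis was possible because each genotype has 1 library. On the log2 scale, G2 and M genes outside the choice were higher in mitotic-high cells under all 18 alternatives, at 0.17 to 0.55 in KO and 0.31 to 0.90 in WT. The values outside the counting interval were, in KO, 0.17 at a minimum of 500 UMIs, 0.27 and 0.29 with cells chosen by the first 8 and last 7 genes, 0.55 against cells with no UMI of the 15 genes, 0.50 for the top 1% and 0.46 with the WT cut. In WT they were 0.62 for the top 5%, 0.50 for the top 20%, 0.88 for the top 1%, 0.31 and 0.62 at minimums of 500 and 2000 UMIs, 0.43 for cells chosen after thinning, 0.41 with the last 7 genes and 0.90 against cells with no UMI. KO over WT in mitotic-high cells stayed below 0 under all 16 alternatives, and was -0.32 after thinning and -0.28 with the WT cut; for neuroectoderm genes it was -0.80 without the cells of at least 5 CRABP1 UMIs. The top 1%, the WT cut and the exclusion of CRABP1-rich or primitive streak-rich cells were chosen after seeing the data. Wherever a minimum of 500 UMIs was used, the minimum number of genes per cell was lowered with it.

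Counts of genes past 1.5-fold moved most, and the cause was not tested, save that a gene minimum of 20 or 100 CPM tests more or fewer genes. The 13 genes higher in both libraries became 38 for the top 5%, 0 and 59 at minimums of 500 and 2000 UMIs, 23 when scaled without mitochondrial and ribosomal protein genes, 87 and 3 at gene minimums of 20 and 100 CPM, 5 after thinning, 5 with the last 7 genes, 118 against cells with no UMI and 28 with the WT cut. In the same order of settings the 4 lower genes became 30, 0 and 67, 12, 56 and 0, 0, 1, 21 and 18, and also 0 for the top 20%, 7 by the mean of per-cell CPM and 8 without cells over 2 times the median UMIs. The 185 genes higher in KO mitotic-high cells became 348 and 99 for the top 5% and 20%, 83 and 420 at 500 and 2000 UMIs, 334 under that scaling, 542 and 64 at 20 and 100 CPM and 105 after thinning. The 322 lower ones became 502 for the top 5%, 189 and 565 at 500 and 2000 UMIs, 1059 and 97 at 20 and 100 CPM and 516 with the WT cut. Median UMIs of mitotic-high cells were 617 in KO and 641 in WT at a minimum of 500 UMIs, 2462.5 and 2476.5 at 2000, and 1125 in KO with the last 7 genes.

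Directions reversed in 22 cases among the single lists and genes described. This is not the number for all genes and lists under the naming rule, for which 59 values reversed, 37 of them of 27 results that are not described, since the members described were chosen with these reversals known. List members left out in this way were, in KO, PIMREG (0.40, and -0.19 with the first 8 genes), STIP1 (0.45, and -0.27 with the WT cut) and TMPO (0.56, and -0.095 after thinning). Also left out in KO were PSMD7 (0.30, and -0.018 with the last 7 genes), UQCRQ (-0.32, and 0.15 with the last 7) and RPL22L1 (-0.39, and 0.086 with the last 7). In WT, SMC1A was left out (0.57, and -0.014 at 2000 UMIs). CRABP1 in WT (0.38, and -0.016 at 2000 UMIs) is counted with these, although its values are given above. Of those described, the reversed values at 500 UMIs were core pluripotency in WT (0.00097), primitive streak in KO (-0.16), and KO over WT for UXT (-0.0074) and ANAPC5 (0.13). At 2000 UMIs they were glycolysis in WT (0.043), PRC1 (-0.045) and ECT2 (-0.58) in KO and MLLT10 in WT (-0.92). With the first 8 genes they were core pluripotency (-0.0085), primitive streak (-0.21) and SALL4 (-0.029) in KO. With the last 7 they were STMP1 in KO (0.18), PRPS1 in WT (0.077) and the mitochondrial ratio of ratios (0.0090). With the WT cut they were ECT2 in KO (-0.11) and KO over WT for the passenger complex (0.092). Against cells with no UMI they were core pluripotency in WT (0.025) and the neuroectoderm ratio of ratios (0.00034). STMP1 in WT was 0.018 after thinning, mitochondrial genes in WT 0.013 for the top 5%, and primitive streak genes in KO -1.87 without the deepest cells and -0.43 without streak-rich cells. At this depth intervals of mitotic-high over other cells for 1 gene had median half-widths of 0.51 in KO and 0.44 in WT.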

Other observations

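Outside the comparisons above, actin cytoskeleton genes differed by a log2 ratio of 0.06 in KO mitotic-high over other cells (0.01 to 0.10) and -0.01 in WT (-0.05 to 0.03). Nuclear long noncoding RNAs were lower in mitotic-high cells of both libraries, at -0.14 in KO (-0.22 to -0.05) and -0.14 in WT (-0.22 to -0.06). Target genes of p53, which carry out arrest and repair, were at 0.07 in KO (-0.07 to 0.20) and -0.18 in WT (-0.30 to -0.06). Proteasome genes were at 0.05 in KO (0.00 to 0.11) and -0.03 in WT (-0.08 to 0.02), and translation factors at 0.06 (0.02 to 0.11) and -0.02 (-0.06 to 0.02).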
